A study of Mus musculus with 9 samples.

Results

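The genes described here are the core of transforming growth factor β (TGF-β) handling in regulatory T cells (Tregs): the latent TGF-β carrier Lrrc32, the cytokine gene Tgfb1, the convertase Furin, the receptors Tgfbr1 and Tgfbr2, and the signal transducers Smad2, Smad3 and Smad4. They were chosen by symbol, and all 8 were found among the 16409 genes of the authors' normalized table. Tregs were sorted as CD4+ GFP+ cells from tumours of Lewis lung carcinoma (LLC), a mouse lung cancer line, grown in C57BL/6 mice whose genotype the labels give as wild-type. What drove GFP, whether the transfected lines were clonal and how old the mice were is not stated in the labels. Each of the 3 groups had 3 pools of 3 to 4 mice. Mock pools came from mock-transfected tumours in untreated mice. The β8 isotype and anti-β8 pools came from LLC cells made to express β8, an integrin subunit, in mice given an isotype control or the β8 antibody C6D4. The antibody was dosed at 7 mg/kg into the peritoneum, 2 times a week from day 7 after inoculation, and tumours were taken on day 14. Mock mice got no injection, so in comparisons with Mock the effects of tumour β8 and of an injected antibody cannot be told apart. On GRCm38 (GENCODE M21) the genes lie at chr7:98489283-98502181 (Lrrc32), chr7:25687002-25705077 (Tgfb1), chr7:80388585-80405436 (Furin), chr4:47353222-47414931 (Tgfbr1), chr9:116084293-116175360 (Tgfbr2), chr18:76241580-76310963 (Smad2), chr9:63646767-63757994 (Smad3) and chr18:73639009-73703780 (Smad4).

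TGF-β1 is made as a precursor that furin cuts in the secretory pathway, and the released growth factor stays bound to its propeptide as latent TGF-β. On Tregs the protein GARP, encoded by Lrrc32, tethers latent TGF-β to the surface, where the integrin αvβ8 on another cell can bind the propeptide and free the cytokine for signalling. Active TGF-β joins the receptor subunits encoded by Tgfbr2 and Tgfbr1, which phosphorylate the proteins of Smad2 and Smad3, and these enter the nucleus with the Smad4 product. TGF-β signalling supports Foxp3 expression and Treg function in peripheral tissue.

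The coding sequences of the TGF-β isoforms show the sites on which integrin and furin act, and are given to show which isoforms carry both. In each run the first capitals are the codons for arginine, glycine and aspartate (RGD) that αvβ8 recognizes, and the second capitals are the codons of the furin motif before the mature cytokine. They were taken from GENCODE mouse release M21 transcripts (GRCm38), 5′ to 3′ on the coding strand.
Tgfb1: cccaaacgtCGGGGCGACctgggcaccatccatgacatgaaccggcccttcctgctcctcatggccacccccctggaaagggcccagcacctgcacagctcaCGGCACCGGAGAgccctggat
Tgfb3: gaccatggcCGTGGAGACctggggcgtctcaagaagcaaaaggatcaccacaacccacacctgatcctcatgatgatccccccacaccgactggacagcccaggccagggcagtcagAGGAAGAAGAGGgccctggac
The Tgfb1 run lies in exon 5 at chr7:25697133-25697255 on the plus strand, with RGD starting at codon 244 of 390 and the furin motif at codon 275. The Tgfb3 run lies in exon 5 at chr12:86062045-86062182 on the minus strand, with these sites starting at codons 261 and 297. The 442 codons of Tgfb2 held 0 RGD triplets and 1 furin motif. Of these isoforms the Tregs carried mainly Tgfb1, at 73.5 to 143 normalized FPKM (fragments per kilobase, corrected for sequencing depth), against 0.774 to 3.07 for Tgfb3 in 8 libraries. In anti-β8 pool 3 Tgfb3 is listed at 0.0936, the lowest value that any gene has in that library after normalization. Tgfb2 is not in the normalized table and reached at most 0.419 FPKM in the unnormalized one.

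Treg markers were present, as 8 of 8 reached 1 FPKM, and Foxp3, the lineage transcription factor, lay at 73.2 to 132 normalized FPKM in the 9 libraries, and passed in no comparison (log2 differences of -0.094, 0.40 and 0.31, SE 0.20, limma adjusted p of at least 0.509). Among the Treg markers, Ikzf2, Il10, Ctla4 and Tnfrsf18 did not follow Foxp3. Ikzf2, which encodes the transcription factor Helios, measured 47.5, 56.4 and 60.8 FPKM in Mock, 116, 99.99 and 90.9 with isotype and 78.0, 29.5 and 18.8 with anti-β8. Il10, an immunosuppressive cytokine gene, measured 33.7, 59.1 and 33.7, then 79.3, 54.3 and 43.7, then 29.7, 5.73 and 15.4. For Ikzf2 and Il10, all anti-β8 pools lay below all β8 isotype pools, where 15.0% of all genes separated in either direction. The differences were -1.503 ± 0.40 for Ikzf2 and -1.96 ± 0.49 for Il10 (limma adjusted p = 0.379 and 0.351). Both were chosen after their values were seen. Of the other listed markers, mean FPKM in Mock, β8 isotype and anti-β8 was 449, 717 and 503 for Ctla4. It was 851, 1142 and 949 for Tnfrsf18, and 112, 131 and 109 for Il2ra. For Cd3e it was 600, 717 and 728, and for Cd4 80.0, 94.3 and 83.3. For Ctla4 and Tnfrsf18 too, all anti-β8 pools lay below all β8 isotype pools. Ctla4 measured 854, 598 and 700 FPKM with isotype and 519, 471 and 518 with anti-β8. Tnfrsf18 measured 1161, 1155 and 1110, then 876, 1002 and 969. Foxp3 separated these groups in the other direction, and Il2ra, Cd3e and Cd4 overlapped. Read totals were not available. The commonest low value of FPKM times transcript length, in single-transcript genes, put depth at 0.966 to 1.27 of that of Mock pool 1. That value was sought in a fixed window, so similar depth was not established. Pools 2 and 3 of anti-β8 stood apart. They had 9772 and 9283 genes at or above 1 FPKM, where the other libraries had 11785 to 12177. Their correlation across genes with the other 7 libraries was 0.822 to 0.856, and 0.791 with each other, while the other 7 reached 0.908 to 0.946 among themselves. The mean SD of a gene within a group, as log2(FPKM + 1), was 0.45 for Mock, 0.37 for β8 isotype and 0.77 for anti-β8. Transcripts of other cells were present in all groups. Of 11 myeloid markers, 10 reached 1 FPKM. Lyz2 was the highest of them, at 138 to 541 normalized FPKM, above the range of Foxp3. The summed FPKM of the 11 ran from 298 to 560.0 in Mock pools, 185 to 687 in β8 isotype pools and 405 to 699.6 in anti-β8 pools. The sums of 7 B and plasma cell markers (6 reached 1 FPKM) were 19.2 to 67.0, 33.6 to 129 and 104 to 183 in that order, and those of 6 CD8 T and NK cell markers (all reached 1 FPKM) 25.1 to 31.4, 27.6 to 51.3 and 42.4 to 64.7. Erythroid markers (6, of which 5 reached 1 FPKM and 1 was at 0 throughout) summed to 62.1 to 315, 32.6 to 39.4 and 0 to 86.7, and tumour and epithelial markers (6, of which 4 reached 1 FPKM and 1 was at 0 throughout) to 33.0 to 52.3, 45.7 to 60.2 and 28.7 to 123. The part of these other cells in the differences given here was not tested.

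Across all 9 libraries the ligand side of the pathway stood well above its receptors and SMADs. Tgfb1 averaged 107 ± 23.9 FPKM (SD, n = 9 libraries), above 93.5% of genes in the normalized table. Furin (60.6 ± 9.85) and Lrrc32 (58.0 ± 18.1) followed, then Tgfbr2 (21.6 ± 8.99), Smad4 (20.8 ± 5.02) and Smad2 (20.8 ± 3.30), and last Smad3 (12.4 ± 3.13) and Tgfbr1 (4.80 ± 2.23). FPKM are scaled to transcript length, but no other difference in how genes are measured was corrected here. The order of levels between genes is therefore approximate. Tgfb1 exceeded Furin in 9 of 9 libraries, Smad2 exceeded Smad3 in 9 of 9, and Smad3 exceeded Tgfbr1 in 9 of 9 (two-sided exact sign-flip permutation test on log2 ratios, adjusted p = 0.00911 for each over 7 neighbours). Lrrc32 exceeded Tgfbr2 in 8 of 9 (adjusted p = 0.0137), the exception being anti-β8 pool 3. Neighbours within the spread were Furin and Lrrc32 (adjusted p = 0.793), Tgfbr2 and Smad4 (0.957), and Smad4 and Smad2 (0.957). The neighbours were set by the order of means in these same libraries, so these p-values give the order no independent support. The 9 libraries also came from 3 groups and are not replicates of 1 condition. The genes also differed in how much they varied. Furin and Smad2 were among the steadiest, with residual SDs within groups of 0.16 and 0.19 log2 units against a median of 0.52 over all genes tested, while that of Lrrc32 was 0.58. This last value came from anti-β8, where the SD was 0.95 with pool 3 far below the other pools, against 0.14 in Mock and 0.27 in β8 isotype.

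**Figure D1:**
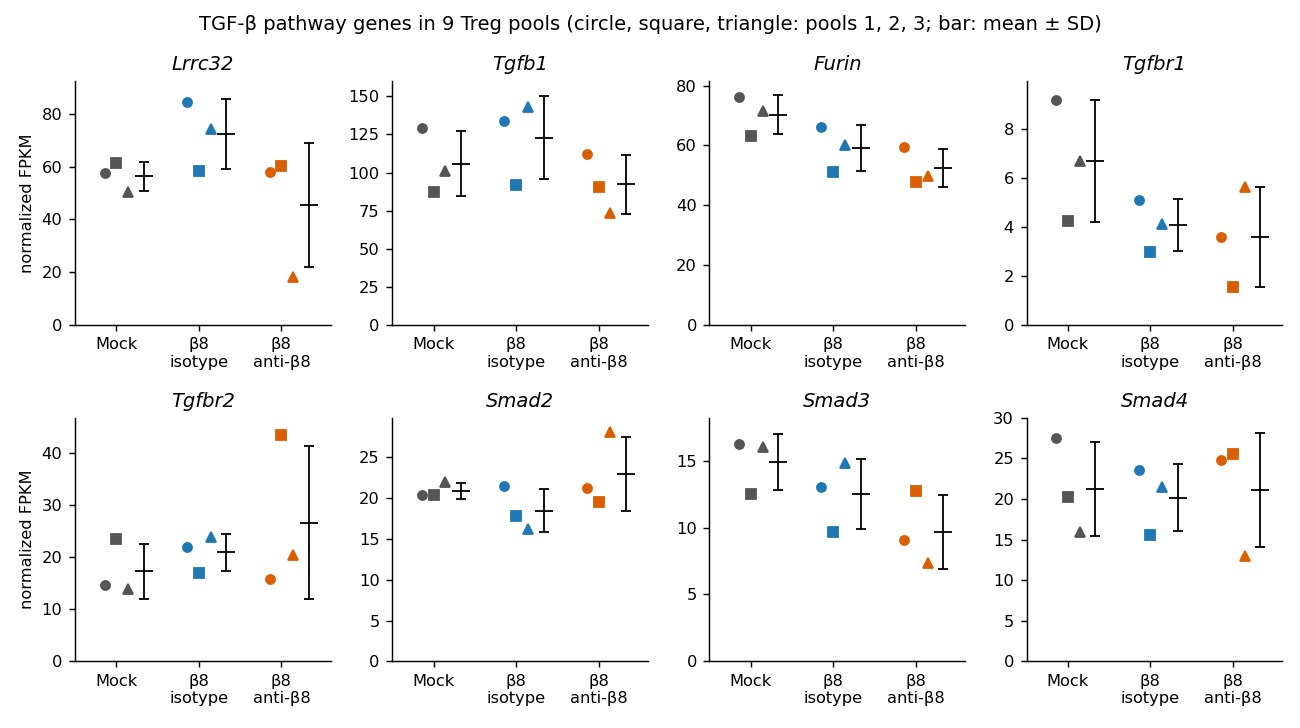
Normalized FPKM of the 8 genes (vertical axes, each from 0) in Mock, β8 isotype and anti-β8 pools, with circles, squares and triangles for pools 1, 2 and 3 and bars for the mean ± SD over 3 pools. Anti-β8 pool 3 is low for Lrrc32 at 18.2 and anti-β8 pool 2 is high for Tgfbr2 at 43.4.

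No gene of the 8 passed the test in any comparison. After adjustment over 12555 genes, 0 of the 8 passed in β8 isotype against Mock, in anti-β8 against β8 isotype, in anti-β8 against Mock, or in a test for any difference among the 3 groups (limma, adjusted p of at least 0.368 throughout). At an unadjusted p under 0.05 the count was also 0 of 8 in each. Of all genes, 0.00796%, 0.0637%, 0.183% and 0.127% passed the adjusted threshold in that order, and 5.57%, 10.2%, 14.0% and 11.0% had an unadjusted p under 0.05. The comparisons share groups and are not independent of each other. In bulk RNA, fewer cells expressing a gene and less RNA per cell cannot be told apart.

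On the ligand side, Lrrc32, which encodes GARP, measured 57.5, 61.2 and 50.3 FPKM in Mock pools 1 to 3, 84.5, 58.2 and 74.1 in β8 isotype, and 57.8, 60.3 and 18.2 in anti-β8. The groups overlapped, and the low anti-β8 value came from pool 3, with pools 1 and 2 inside the Mock range. The largest of the 3 Lrrc32 differences was that of anti-β8 against β8 isotype, at -0.82 ± 0.39 (log2 of FPKM + 1, SE, limma adjusted p = 0.50). Its 95% confidence interval ran from -1.67 to 0.037, so that falls to 0.313 of the β8 isotype level were not excluded. Without anti-β8 pool 3 the difference was -0.27, and without pools 2 and 3 of that group it was -0.30. Against Mock, Lrrc32 differed by 0.34 ± 0.39 in β8 isotype (adjusted p = 1.00) and by -0.48 ± 0.39 in anti-β8 (adjusted p = 0.611), the latter turning to 0.071 without anti-β8 pool 3.

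Tgfb1, the cytokine gene, measured 129, 87.3 and 101 FPKM in Mock pools, 134, 91.8 and 143 in β8 isotype pools and 112, 90.7 and 73.5 in anti-β8 pools. Both extremes, 143 and 73.5, belonged to pools of β8 tumours, and every group held a pool between 87.3 and 91.8. Tgfb1 differed by 0.21 ± 0.24 in β8 isotype against Mock, by -0.41 ± 0.24 in anti-β8 against β8 isotype (adjusted p = 0.557) and by -0.20 ± 0.24 in anti-β8 against Mock. For anti-β8 against β8 isotype the difference was -0.10 without anti-β8 pools 2 and 3. Platelets also carry latent TGF-β and GARP. Of 7 platelet markers 3 reached 1 FPKM and 1 (Ppbp) was at 0 throughout, and their summed FPKM ran from 0.675 to 4.84 in Mock pools, 0.408 to 2.36 in β8 isotype pools and 2.35 to 40.3 in anti-β8 pools, the highest in pool 2; their part in the Lrrc32 and Tgfb1 values was not tested.

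Furin, the convertase that cuts the TGF-β precursor, had the least spread of the 8 and the only values that separated a pair of groups. It measured 76.1, 63.2 and 71.6 FPKM in Mock pools, 66.2, 51.0 and 60.1 in β8 isotype pools and 59.6, 47.7 and 49.7 in anti-β8 pools. All anti-β8 pools lay below all Mock pools, with β8 isotype between and overlapping both. The difference in anti-β8 against Mock was -0.42 ± 0.20 (95% confidence interval -0.85 to 0.010, limma adjusted p = 0.368), and -0.23 without anti-β8 pools 2 and 3. Furin was the 1 gene of 8 whose pools did not overlap in that comparison, where this held for 16.3% of all genes. In β8 isotype against Mock and in anti-β8 against β8 isotype 0 of 8 separated, against 17.5% and 15.0% of all genes. Furin differed by -0.25 ± 0.20 in β8 isotype against Mock and by -0.17 ± 0.20 in anti-β8 against β8 isotype, and with anti-β8 pool 1 as the sole library of its group the latter was 0.019.

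Among the receptors, Tgfbr1, the type I receptor kinase that phosphorylates SMADs, was the lowest of the 8. It measured 9.22, 4.24 and 6.70 FPKM in Mock pools, 5.10, 2.99 and 4.15 in β8 isotype pools and 3.60, 1.56 and 5.62 in anti-β8 pools. Mock pools 1 and 3 were the highest of all, and Mock pool 2 lay within the range of the other groups. Tgfbr1 differed by -0.57 ± 0.48 in β8 isotype against Mock (adjusted p = 1.00), by -0.23 ± 0.48 in anti-β8 against β8 isotype and by -0.80 ± 0.48 in anti-β8 against Mock (adjusted p = 0.483). In the unnormalized table anti-β8 pool 2 held 0.478 FPKM in place of 1.56, and the differences of anti-β8 from β8 isotype and Mock were -0.72 and -1.14. Without anti-β8 pool 2 they were 0.14 and -0.43 in the normalized table.

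Tgfbr2, the type II receptor that binds the ligand first, measured 14.7, 23.4 and 13.8 FPKM in Mock pools, 21.9, 17.0 and 23.9 in β8 isotype pools and 15.9, 43.4 and 20.5 in anti-β8 pools. The groups overlapped apart from the high value of anti-β8 pool 2. Tgfbr2 differed by 0.28 ± 0.38, 0.22 ± 0.38 and 0.50 ± 0.38 in β8 isotype against Mock, anti-β8 against β8 isotype and anti-β8 against Mock (adjusted p = 1.00, 0.853 and 0.587). Without anti-β8 pool 2 the values against β8 isotype and Mock were -0.19 and 0.097.

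The pool that was high for Tgfbr2 was also the lowest for Tgfbr1. Tgfbr2 over Tgfbr1 was 1.59, 5.53 and 2.06 in Mock pools, 4.30, 5.69 and 5.77 in β8 isotype pools, and 4.42, 27.9 and 3.65 in anti-β8 pools. Anti-β8 pool 2 stood apart, at 94.7 in the unnormalized table, and the other 8 libraries lay between 1.59 and 5.77. Smad2 over Smad3 was 1.26, 1.63 and 1.38 in Mock pools, 1.65, 1.84 and 1.09 in β8 isotype pools and 2.35, 1.53 and 3.83 in anti-β8 pools. Here pool 3 of anti-β8 was the highest, with the groups overlapping. Lrrc32 over Tgfb1 lay between 0.445 and 0.701 in 8 libraries and at 0.248 in anti-β8 pool 3. Over these 3 ratios and 3 comparisons, 0 of 9 differences passed a two-sided exact permutation test on log2 ratios (adjusted p of at least 0.675), and 3 pools against 3 cannot give a p below 0.1.

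**Figure D2:**
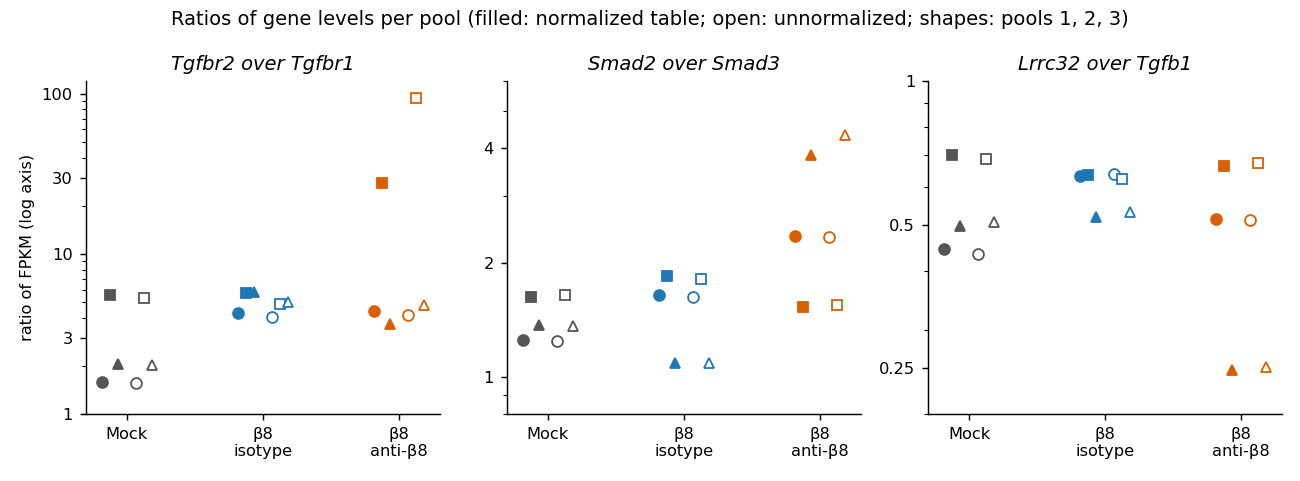
Ratios of normalized FPKM (filled) and unnormalized FPKM (open) per pool on a logarithmic axis, for Tgfbr2 over Tgfbr1, Smad2 over Smad3 and Lrrc32 over Tgfb1, with circles, squares and triangles for pools 1, 2 and 3. Anti-β8 pool 2 stands apart in the receptor ratio at 27.9 and 94.7, and anti-β8 pool 3 in Lrrc32 over Tgfb1 at 0.248.

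Of the SMADs, Smad2, which carries the signal of the receptors, varied little. It measured 20.4, 20.3 and 22.0 FPKM in Mock pools, 21.4, 17.8 and 16.2 in β8 isotype pools and 21.2, 19.5 and 28.1 in anti-β8 pools, with groups that overlapped. It differed by -0.18 ± 0.26 in β8 isotype against Mock, 0.29 ± 0.26 in anti-β8 against β8 isotype and 0.11 ± 0.26 in anti-β8 against Mock, where the 95% confidence interval ran from -0.47 to 0.70.

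Smad3, a SMAD that binds DNA directly, measured 16.2, 12.5 and 16.0 FPKM in Mock pools, 13.0, 9.65 and 14.8 in β8 isotype pools and 9.03, 12.7 and 7.32 in anti-β8 pools. Anti-β8 pools 1 and 3 were the lowest of the 9, and pool 2 lay inside the ranges of both other groups. Smad3 differed by -0.25 ± 0.33, -0.35 ± 0.33 and -0.59 ± 0.33 in the same order of comparisons (adjusted p = 1.00, 0.724 and 0.451). Leaving out single libraries gave -0.37 to -0.087 in β8 isotype against Mock, the latter without β8 isotype pool 2, and -0.54 to -0.18 in anti-β8 against β8 isotype, without anti-β8 pools 2 and 3 in turn.

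Smad4, the shared partner of the receptor-activated SMADs, measured 27.5, 20.2 and 16.0 FPKM in Mock pools, 23.5, 15.6 and 21.4 in β8 isotype pools and 24.8, 25.5 and 13.0 in anti-β8 pools. The ranges of the 3 groups nearly coincided. Smad4 differed by -0.057 ± 0.34, 0.023 ± 0.34 and -0.034 ± 0.34, the smallest differences of the 8 genes in each comparison, and each of these changed sign when single libraries were left out.

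**Figure D3:**
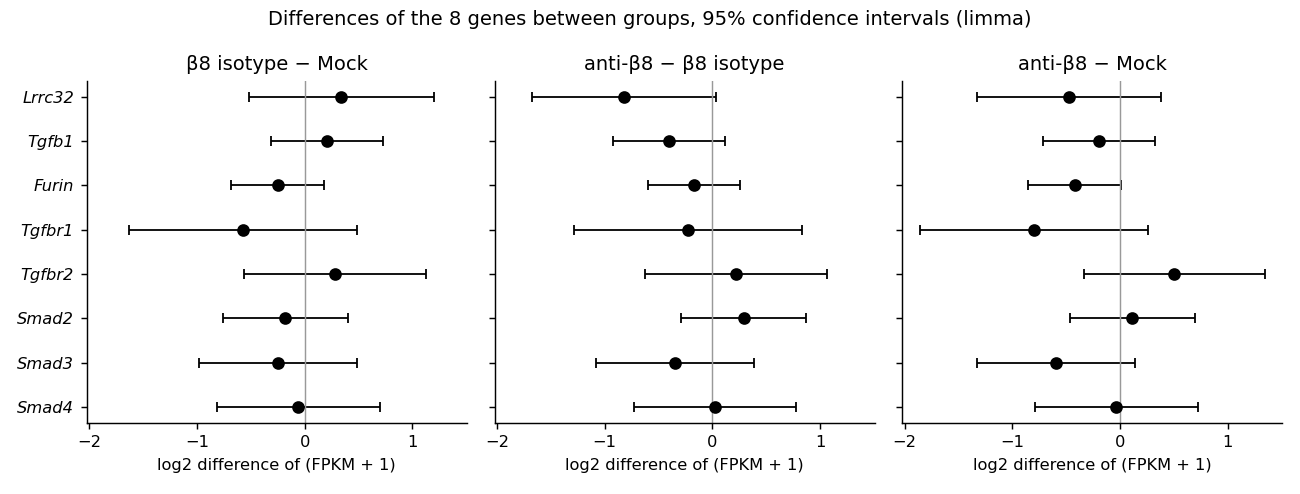
Log2 differences of (FPKM + 1) between groups for the 8 genes with 95% confidence intervals from limma over 3 pools per group. All 24 intervals include 0, the nearest to excluding it being Furin in anti-β8 against Mock (-0.85 to 0.010) and Lrrc32 in anti-β8 against β8 isotype (-1.67 to 0.037).

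The direction of the 8 genes was mixed. In β8 isotype against Mock 3 of 8 lay above 0 with a median of -0.12, where 50.8% of all genes lay above 0 with a median of 0.0087. In anti-β8 against β8 isotype 3 of 8 lay above 0 with a median of -0.20 (all genes 47.1%, median -0.036), and in anti-β8 against Mock 2 of 8 with a median of -0.31 (all genes 48.3%, median -0.025).

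The other genes that load, activate or release latent TGF-β were taken as a list of 15, of which 9 were expressed highly enough to be tested. After adjustment over all genes 0 of 9 passed in each comparison. At an unadjusted p under 0.05 the count was 0 in β8 isotype against Mock, and 1 higher (Ltbp4) and 1 lower (Itgav) in anti-β8 against Mock. In anti-β8 against β8 isotype 2 of 9 were lower. Of all genes, 5.57%, 14.0% and 10.2% had such a p in these comparisons, in either direction. These were Itgav, the αv subunit that pairs with β8 (325 ± 39.5 and 192 ± 44.5 FPKM, -0.78 ± 0.19, adjusted p = 0.351), and Nrros, a relative of GARP that tethers latent TGF-β on myeloid cells (67.8, 50.6 and 50.1 against 29.6, 50.6 and 19.0, -0.84 ± 0.33, adjusted p = 0.446). Itgav in anti-β8 against Mock differed by -0.83 ± 0.19 (limma adjusted p = 0.114), while β8 isotype against Mock gave -0.057 ± 0.19. All anti-β8 pools of Itgav lay below all others. Pools did not overlap for 15.0% of all genes in anti-β8 against β8 isotype and 16.3% in anti-β8 against Mock. Itgb8, the gene of the β8 subunit, differed by -0.055 ± 0.41, -0.51 ± 0.41 and -0.57 ± 0.41, and Nrros by 0.48 ± 0.33 in β8 isotype and -0.36 ± 0.33 in anti-β8 against Mock. Without anti-β8 pool 3, Itgb8 in anti-β8 differed by -0.22 from β8 isotype and -0.27 from Mock, and Nrros by -0.51 and -0.031. Without anti-β8 pool 2, Nrros differed from Mock by -0.71. Whether Itgb8 reads came from Tregs or from β8 tumour cells was not tested. The latent TGF-β binding protein gene Ltbp4 differed by 0.98 ± 0.59 in anti-β8 against β8 isotype and by 1.67 ± 0.59 in anti-β8 against Mock (adjusted p = 0.270). Its anti-β8 values of 2.43, 11.1 and 2.87 FPKM were again uneven, and without pools 2 and 3 the differences were 0.32 and 1.00. In β8 isotype against Mock the smallest p belonged to Ltbp3, a related binding protein gene (0.85 ± 0.45, adjusted p = 0.978), and Itgb1, the β1 integrin subunit (0.41 ± 0.28, adjusted p = 1.00). Ltbp genes are also expressed by fibroblasts, and the summed FPKM of 7 fibroblast markers, of which 5 reached 1 FPKM and 0 were at 0 throughout, ran from 7.31 to 9.91 in Mock pools, 48.5 to 153 in β8 isotype pools and 18.7 to 65.9 in anti-β8 pools; their part in the Ltbp3 and Ltbp4 values was not tested.

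Of 14 other receptors and receptor regulators only 5 were expressed highly enough to be tested, and 0 passed in any comparison, at adjusted or unadjusted thresholds. Bambi, a decoy receptor that dampens TGF-β signalling, was 7.09 ± 0.945 FPKM in Mock pools, 4.13 ± 0.951 in β8 isotype pools and 3.58 ± 0.732 in anti-β8 pools, with Mock pools above all others. Of all genes, 17.5% separated β8 isotype from Mock pools and 16.3% separated anti-β8 from Mock pools, in either direction. Bambi differed by -0.67 ± 0.39 in β8 isotype against Mock and by -0.83 ± 0.39 in anti-β8 against Mock (limma adjusted p = 1.00 and 0.370). Acvrl1, a type I receptor of endothelium, differed by 1.31 ± 0.69 in β8 isotype against Mock and by -1.24 ± 0.69 in anti-β8 against β8 isotype, the latter becoming 0.11 without anti-β8 pools 2 and 3. The summed FPKM of 6 endothelial markers, of which 2 reached 1 FPKM, lay between 8.92 and 14.7 over all libraries. Pecam1 made up most of that sum, at 8.69 to 14.4 normalized FPKM, so it says little about the other endothelial markers. The part of endothelial cells in the Acvrl1 values was not tested. Fkbp1a, which binds the type I receptor, was abundant at 218 ± 5.32 FPKM in Mock and differed by -0.25 ± 0.21 and -0.26 ± 0.21 in anti-β8 against β8 isotype and Mock. Strap, a receptor-associated protein gene, differed by 0.24 ± 0.21 in both, and Bmpr1a, a bone morphogenetic protein receptor, by 0.19 ± 0.50 in β8 isotype against Mock.

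Regulators acting on the SMADs held the smallest p-values of the 3 lists, although 0 of 18 tested (of 21 listed) passed after adjustment in any comparison. The other lists had 9 and 5 genes tested, and a longer list gives smaller lowest p-values by its length alone. At an unadjusted p under 0.05, 0 were higher in each comparison, and 1 was lower in β8 isotype against Mock, 3 in anti-β8 against β8 isotype and 5 in anti-β8 against Mock. Of all genes, 5.57%, 10.2% and 14.0% had such a p in either direction. The medians of the 18 were -0.050, -0.37 and -0.40, beside 0.0087, -0.036 and -0.025 over all genes. Pmepa1, Smad7 and Skil are known to be induced by TGF-β and to feed back on it. Whether TGF-β signalling differed between the groups was not tested. Pmepa1, which holds SMADs away from the receptor, measured 86.6, 51.7 and 88.9 FPKM in Mock pools, 97.3, 57.0 and 65.1 in β8 isotype pools and 31.7, 23.0 and 18.6 in anti-β8 pools. All anti-β8 pools were below all 6 others. Pools did not overlap for 15.0% of all genes in anti-β8 against β8 isotype and 16.3% in anti-β8 against Mock. Pmepa1 differed by -1.54 ± 0.30 in anti-β8 against β8 isotype (adjusted p = 0.222) and by -1.58 ± 0.30 in anti-β8 against Mock (adjusted p = 0.0838). Without anti-β8 pool 1 both passed, at -1.74 and -1.78 (limma adjusted p = 0.0443 and 0.0299). That setting left only pools 2 and 3 in the group, which had fewer genes detected. It also raised the counts over all genes from 8 to 142 and from 23 to 323. Without pools 2 and 3 the Pmepa1 differences were -1.14 and -1.19.

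Smad7, the inhibitory SMAD that blocks the type I receptor, measured 98.7, 91.0 and 98.3 FPKM in Mock pools, 87.1, 76.3 and 82.8 in β8 isotype pools and 60.9, 71.0 and 52.6 in anti-β8 pools, with no overlap between any pair of groups. Over all genes, pools did not overlap for 17.5% in β8 isotype against Mock. The shares were 15.0% and 16.3% in anti-β8 against β8 isotype and against Mock. In the same order Smad7 differed by -0.22 ± 0.18, -0.42 ± 0.18 and -0.64 ± 0.18 (limma adjusted p = 1.00, 0.476 and 0.187). The corepressor gene Ski measured 18.2 ± 3.91, 16.5 ± 1.53 and 6.45 ± 3.14 FPKM in Mock, β8 isotype and anti-β8, and differed by -1.33 ± 0.39 in anti-β8 against β8 isotype and by -1.45 ± 0.39 against Mock (adjusted p = 0.389 and 0.176). Its relative Skil measured 61.6 ± 5.34, 47.6 ± 20.2 and 33.5 ± 8.64 FPKM and differed by -0.44 ± 0.31, -0.44 ± 0.31 and -0.89 ± 0.31 (adjusted p = 1.00, 0.613 and 0.267). The β8 isotype pools of Skil were uneven (69.7, 30.1 and 43.1), and leaving out single libraries gave -0.75 to -0.16 in β8 isotype against Mock and -0.73 to -0.13 in anti-β8 against β8 isotype, with the ends set by β8 isotype pools 1 and 2. Without anti-β8 pools 2 and 3 the anti-β8 differences were -0.84 and -1.28. In β8 isotype against Mock the smallest p in this group belonged to the acetyltransferase gene Crebbp (-0.74 ± 0.33, adjusted p = 0.889), the phosphatase gene Ppm1a (-0.44 ± 0.26) and the corepressor gene Tgif2 (0.72 ± 0.46). Nedd4l, a ubiquitin ligase gene whose product acts on SMADs, differed by -1.52 ± 0.72 in anti-β8 against β8 isotype (limma adjusted p = 0.501), with pools that overlapped. It measured 6.66, 2.84 and 12.2 FPKM in β8 isotype pools and 6.62, 0.0520 and 1.05 in anti-β8 pools. The 0.0520 is the lowest value that any gene has in anti-β8 pool 2 after normalization. Ldlrad4 had the largest fall of the 18 in anti-β8 against Mock, at -1.75 ± 0.59 (limma adjusted p = 0.258). It measured 34.6, 22.7 and 28.5 FPKM in Mock pools, and 19.7, 18.2 and 14.6 in β8 isotype pools. Its anti-β8 pools were uneven, at 9.17, 1.91 and 21.2. All Mock pools of Ldlrad4 lay above all others, beside the shares of all genes given above. Whether these genes differed more than the 8 core genes was not tested.

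**Figure D4:**
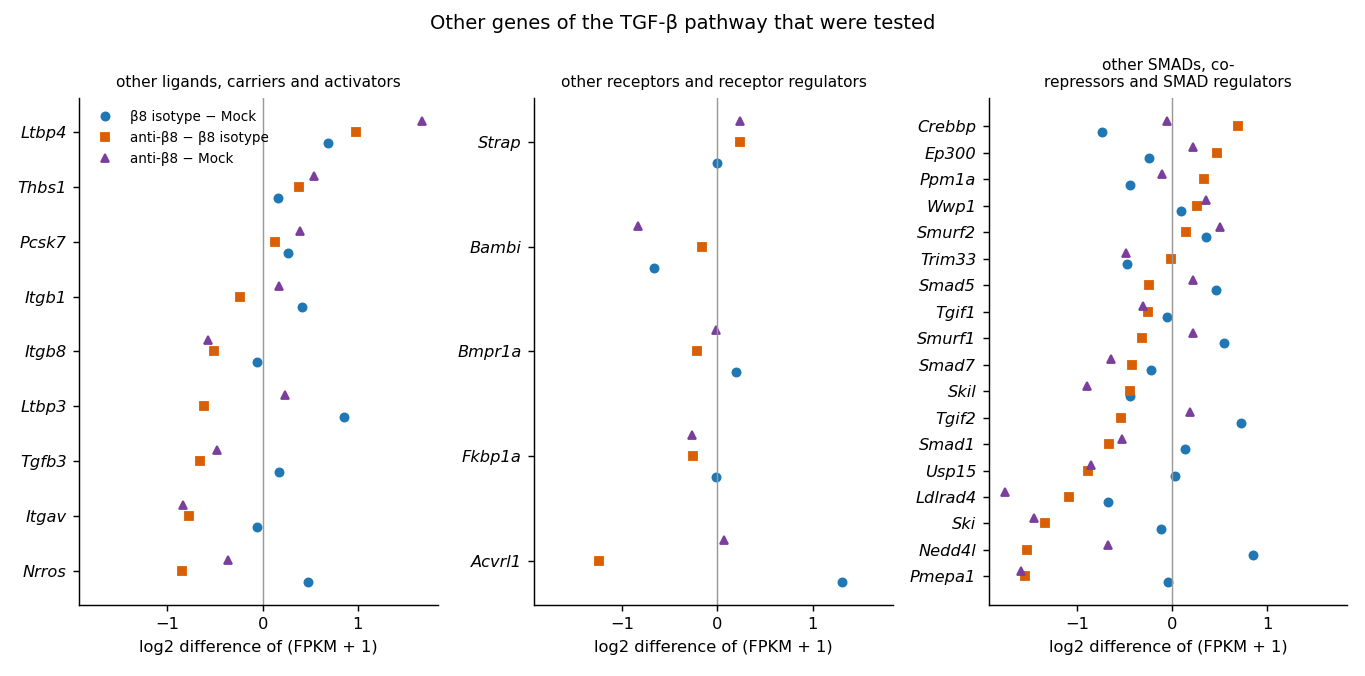
Log2 differences of (FPKM + 1) for 32 further genes of the TGF-β pathway in 3 lists, with circles for β8 isotype against Mock, squares for anti-β8 against β8 isotype and triangles for anti-β8 against Mock, ordered by the squares. None passed adjustment over all genes. Pmepa1, Nedd4l and Ski lie at the low end, at -1.54, -1.52 and -1.33 in anti-β8 against β8 isotype. For Nedd4l the anti-β8 pool 2 value, 0.0520 FPKM, is the lowest of any gene in that library.

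The genes whose levels followed Lrrc32 most closely over the 9 libraries, of all 12555 tested, were Fbxo30, Trbv19, Zfp281, Plxnd1 and Mfsd10, with Pearson's r of log2 values between 0.966 and 0.982. Over the 7 libraries without anti-β8 pools 2 and 3 their r was 0.835 to 0.924. For Tgfb1 they were Rasgef1b, Snx18, Impact, Ap5b1 and Nab2, at 0.908 to 0.956 over 9 libraries and 0.892 to 0.960 over 7. These correlations are the highest of many and are given as a description, and anti-β8 pools 2 and 3, with fewer genes detected, are among the 9 libraries.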

How the data were processed

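Bulk RNA sequencing of 9 Treg pools was used. Per the labels' protocols, RNA was isolated with RNeasy Mini, amplified with SMART-Seq v4 and made into Nextera XT libraries, without molecular identifiers or strand marking, so overlapping antisense genes cannot be told apart. The authors deposited FPKM, once unnormalized (53251 genes) and once normalized (16409 genes). Cufflinks, Picard, RSEM 1.3.1, STAR 2.6.1a, Trim Galore 0.5.0 and the build GRCm38 are listed, without roles, by the submitters' processing notes. No source used here names the annotation. In the normalized table the 1000 highest sorted values differed between libraries by at most 0.0907%, as quantile normalization gives, and every gene had an unnormalized FPKM above 1 in some library. Such values depend on a gene's rank in its library, which moved Tgfbr1 in anti-β8 pool 2 by 225% and the other 7 genes by at most 11.4% in any library. The normalized table lists gene identifiers, so symbols came from the unnormalized one, from which 1 row with shifted cells was left out; 26 symbols turned into dates were restored from GENCODE M21, which held 99.6% of the identifiers.

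Genes with at least 1 FPKM in at least 3 libraries (12555, all 8 described genes among them) were analysed as log2(FPKM + 1), a scale that understates changes of low genes. With limma 3.58.1 under R 4.3.3, 1 linear model of the 3 group means was fitted to the 9 libraries, with trend and robust settings, two-sided, with Benjamini-Hochberg adjustment over all genes and a threshold of 0.05. An F test covered any difference among groups. Since FPKM hold no counts, neither a count test nor counting intervals are given. The code was tested on simulated data. The genes, lists and ratios were chosen with earlier results of these data known. Named besides the 8 genes are Itgb8, Itgav, Nrros, Smad7, Skil, Foxp3 and the 3 genes of smallest p per pathway list and comparison. After their values were seen, Ikzf2, Il10, the other Treg markers, Nedd4l and Ldlrad4 were named too. Pool numbers are shared by the groups but the labels do not pair them. Alternatives were the unnormalized table, a pseudocount of 0.1, no filter, no trend or robust settings, array weights, only the 6 libraries compared, a replicate block, leaving out each library, and leaving out anti-β8 pools 2 and 3. Each p-value rests on how much pools of mice varied.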

Additional observations from a re-analysis of the deposited data

How the results depend on the processing

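In the pairwise comparisons, 0 of the 8 genes passed under any of 17 alternatives each. Of the 408 resulting differences, 387 kept their direction and 21 changed it, all of genes that did not pass. Leaving out 1 library moved 22 of the 24 differences by over 1.5 times or turned them, the exceptions being Furin and Smad3 in anti-β8 against Mock. The unnormalized table gave 0.0054 and 0.0077 for Smad4 in β8 isotype and anti-β8 against Mock, and 0.041 for Itgb8 in β8 isotype against Mock. Array weights gave -0.059 for Tgfbr2 in anti-β8 against β8 isotype and 0.12 for Smad4 in anti-β8 against Mock. Without anti-β8 pools 2 and 3, where pool 1 alone stood for its group and was assumed to vary like the others, anti-β8 against β8 isotype gave 0.019 for Furin, -0.36 for Tgfbr2, 0.11 for Acvrl1 and 0.17 for Fkbp1a, and anti-β8 against Mock gave 0.041 for Lrrc32, 0.11 for Tgfb1, -0.077 for Tgfbr2, 0.24 for Smad4 and 0.16 for Fkbp1a.

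Leaving out single libraries, where signs changed, gave -0.23 to 0.14 for Smad4, -0.26 to 0.15 for Itgb8, -0.16 to 0.037 for Itgav, -0.22 to 0.083 for Foxp3, -0.028 to 0.44 for Bmpr1a and -0.072 to 0.30 for Smad2 over Smad3 in β8 isotype against Mock. In anti-β8 against β8 isotype it gave -0.14 to 0.32 for Smad4, -0.54 to 0.14 for Tgfbr1, -0.19 to 0.51 for Tgfbr2, -0.46 to 0.026 for Fkbp1a and -0.37 to 1.09 for Tgfbr2 over Tgfbr1. In anti-β8 against Mock it gave -0.77 to 0.071 for Lrrc32, -0.036 to 0.22 for Smad2, -0.21 to 0.27 for Smad4, -0.47 to 0.013 for Fkbp1a and -0.59 to 0.12 for Lrrc32 over Tgfb1. The ratios' alternatives were chosen after seeing the data.

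Counts over all genes moved more. For β8 isotype against Mock, 1 gene passed, and 0 did without trend and robust settings, 111 with array weights, 29 with only the 6 libraries compared, 2 with a replicate block, 30 without anti-β8 pools 2 and 3, and 1 to 2 without single libraries. For anti-β8 against β8 isotype 8 passed, and 2 did in the unnormalized table, 3 with a pseudocount of 0.1, 3 without trend and robust settings, 3 with only 6 libraries, 2 with a replicate block and 2 to 142 without single libraries. For anti-β8 against Mock 23 passed, and 15 did without a filter, 13 without trend and robust settings, 14 with array weights, 15 with a replicate block and 9 to 323 without single libraries. For any difference 16 passed, and 10 did with a pseudocount of 0.1, 5 without trend and robust settings, 58 with array weights and 5 to 125 without single libraries. The highest count in each of these last 3 came without anti-β8 pool 1; the cause was not tested. Deviations of same-numbered pools from their group means correlated at -0.040 to 0.046 over all genes. With 3 pools per group this cannot decide whether the numbers pair the samples, and the labels do not pair them.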
